A study of Mus musculus with 8 samples.

Results

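Transforming growth factor beta (TGF-beta) pathway genes were followed by name: Tgfb1, Tgfbr1, Tgfbr2, Smad2, Smad3, Smad4, Smad7, Tgfbi, Ski and Skil. These were picked by symbol, not by level, and all 10 were found among the 16486 gene entries of the table. Bulk RNA sequencing of sorted peripheral blood monocytes (MCs) gave 8 libraries, from Ly6C high MCs (CD11b+Ly6G-Ly6C high) and Ly6C low MCs (CD11b+Ly6G-Ly6C low) of 3 groups of male mice. Control (CT) mice were wild-type C57/BL6. For T1DM, C57/BL6 mice aged 8 weeks received streptozotocin, a toxin of insulin-producing beta cells, on 5 days in a row at a daily 50 mg/kg. The db/db mice used for T2DM are homozygous for a mutation of the leptin receptor. All groups ate normal chow and were bled at 20 to 22 weeks. The RNA of 5 mice was pooled in each group, so no library stood for a single animal, and CT libraries were duplicates. CT had 2 libraries of each subset, and T1DM and T2DM had 1 each. The NextSeq 500 read the CT libraries and the HiSeq 4000 the diabetic ones, so in any comparison with CT the effect of diabetes and that of the instrument cannot be told apart. Nothing in the sources used here says that duplicates came from separate mice, so the p-values measure only the spread between these libraries, which may be technical.

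TGF-beta 1, the product of Tgfb1, is secreted in a latent form and must be released before it can bind. It binds the type II receptor (Tgfbr2), which recruits and phosphorylates the type I receptor (Tgfbr1). The active receptor phosphorylates the receptor-regulated SMADs, Smad2 and Smad3, which join the common partner Smad4 and enter the nucleus to regulate transcription. Smad7 blocks the receptor, and Ski and Skil (SnoN) hold SMAD complexes in a repressed state. Tgfbi encodes an extracellular matrix protein that was named for its induction by TGF-beta. In the blood and tissues the pathway is known for restraining inflammation and for driving fibrosis, and MCs and the macrophages derived from them both make and answer the ligand.

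Tgfb1 and Tgfbi were the genes that carried the largest subset differences among the 10, so the 250 bases before their starts are shown (RefSeq, GRCm38.p6). Tgfb1 lies on the plus strand of chromosome 7 at 25687002 to 25705077, and its window at chr7:25686752-25687001 had 75.2% G and C. Tgfbi lies on the plus strand of chromosome 13 at 56609586 to 56639359, and its window at chr13:56609336-56609585 had 62.4% G and C. Capitals mark matches to CAGAC or its reverse complement GTCTG, the letters known as the SMAD binding element.
Tgfb1: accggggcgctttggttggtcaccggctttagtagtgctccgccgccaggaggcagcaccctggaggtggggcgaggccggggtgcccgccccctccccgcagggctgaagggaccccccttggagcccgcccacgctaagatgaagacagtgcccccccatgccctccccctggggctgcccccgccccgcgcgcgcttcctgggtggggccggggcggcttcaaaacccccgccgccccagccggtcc
Tgfbi: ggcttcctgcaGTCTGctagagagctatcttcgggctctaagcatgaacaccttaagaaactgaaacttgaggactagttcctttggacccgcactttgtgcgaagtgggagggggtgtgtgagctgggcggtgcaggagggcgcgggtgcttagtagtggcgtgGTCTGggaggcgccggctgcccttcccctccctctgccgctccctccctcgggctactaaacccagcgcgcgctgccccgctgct
The Tgfbi window held 2 matches, beginning 239 and 85 bases before the start, and the Tgfb1 window held 0. Neither held TGANTCA, the letters of an AP-1 site, on either strand. Among 32851 promoter windows of the same length, 42.2% held CAGAC on either strand and 6.75% held TGANTCA, so a match to CAGAC was common. Promoter entries existed for 6 of the 10 genes, and 3 of these 6 held CAGAC in at least 1 window. A match describes letters and is not evidence of binding.

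The values are deposited log2 expression values. The methods name gene counts and TPM, a unit per transcript length, as output of the quantification, but the sources used here do not say which of these the deposited values were made from or how they were normalized, so levels are compared between libraries and not between genes. Summed on a linear scale, libraries held 839000 to 1090000 units, with every Ly6C high library above every Ly6C low one. Marker sums on that scale checked the sort. The 8 classical MC markers summed to 11300 to 28200 in Ly6C high and 1140 to 1500 in Ly6C low libraries, and each of the 8 was higher in every Ly6C high library. Of the 10 nonclassical markers 7 were lower in every Ly6C high library, with sums of 1520 to 3070 against 3390 to 4400. Cx3cr1, a receptor used as a nonclassical marker, went against that list at 7.97 to 8.63 log2 in Ly6C high and 7.72 to 8.14 in Ly6C low MCs. In CT 2 of the 10 were higher and 6 lower in Ly6C high MCs at an adjusted p below 0.05 (limma). Nr4a1, another of the 10, read 8.11 and 8.08 in CT Ly6C high and 7.80 and 8.02 in CT Ly6C low MCs. It was 7.34 against 8.21 in T1DM and 7.03 against 8.28 in T2DM. All 10 B cell markers were higher in every Ly6C low library, with sums of 3990 to 5010 against 263 to 509. NK cell markers summed to 177 to 892 in Ly6C low and 29.2 to 127 in Ly6C high libraries, T cell markers to 46.8 to 61.2 and 24 to 33.1, dendritic cell markers to 144 to 247 and 89.2 to 137, eosinophil markers to 58.4 to 78.7 and 5.75 to 12.6, and neutrophil markers to 21.5 to 83.9 and 15.1 to 41.6. Lower in every Ly6C high library were 5 of 8 NK cell and 4 of 10 T cell markers. Of measured markers this held for 3 of 7 of dendritic cells, 1 of 3 of eosinophils and 1 of 5 of neutrophils. Erythroid markers summed to 9580 to 11400 in the T1DM libraries and 4740 to 6840 in the rest. The part of these cells in the results below was not tested, and in bulk RNA fewer cells of a type and less RNA per cell cannot be told apart.

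**Figure D1:**
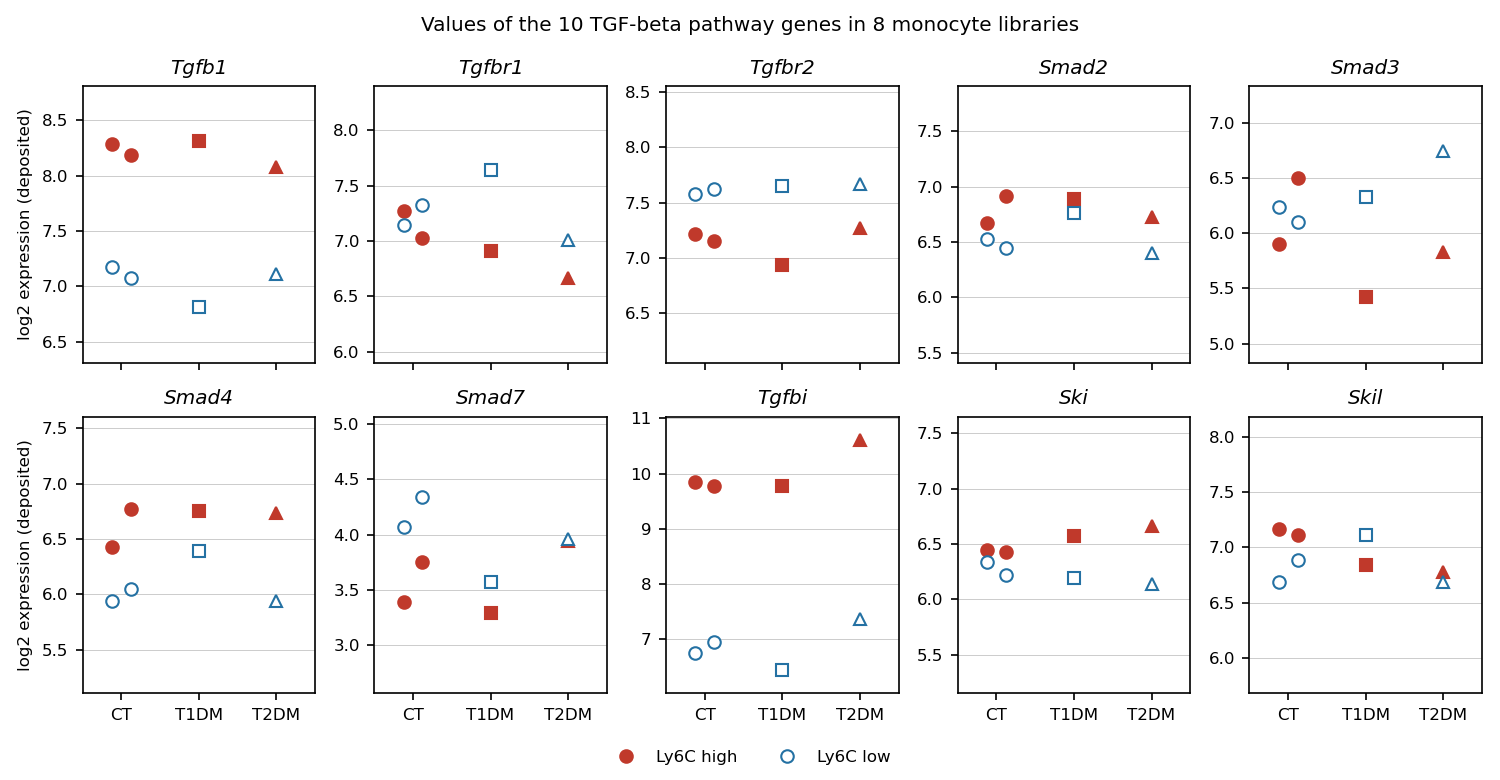
Deposited log2 expression of each of the 10 genes (vertical axis, range differing between panels) in the CT, T1DM and T2DM libraries (horizontal axis), with filled red symbols for Ly6C high and open blue symbols for Ly6C low MCs. Each symbol is 1 library. All Ly6C high libraries stood apart from all Ly6C low libraries for 5 genes, Tgfb1, Tgfbr2, Smad4, Tgfbi and Ski.

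Comparison of Ly6C high with Ly6C low MCs asked how the subsets differ. In CT mice, the ligand gene Tgfb1 and the matrix gene Tgfbi were both higher in Ly6C high MCs, by 2.17-fold and 7.77-fold, while the receptor gene Tgfbr2 was lower. These 2 of the 10 genes were differentially expressed genes (DEG, Benjamini-Hochberg adjusted p below 0.01 with an absolute log2FC above 1, limma), against 3.52% of all gene entries. At adjusted p below 0.05 with no fold minimum 3 of the 10 were called, against 20.5% of all entries. Over the 3 mouse groups, with the mouse group as a term, the same 2 genes were DEG, against 12.1% of all entries, and 4 of the 10 passed an adjusted p below 0.05, against 32.9%. The latter share was close to that of all entries. Median log2FC of the 10 genes was 0.23 in CT and 0.20 over the mouse groups, beside -0.09 and -0.08 for all entries. Subset libraries did not overlap for 5 of the 10 genes, beside 32.8% of all entries, with 4 higher and 1 lower in Ly6C high MCs.

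The ligand gene Tgfb1 stood at 8.29 and 8.19 in Ly6C high and at 7.17 and 7.07 in Ly6C low MCs of CT mice. It was 8.31 and 6.81 in the T1DM and 8.08 and 7.11 in the T2DM Ly6C high and Ly6C low libraries. Every Ly6C high value lay above every Ly6C low value. The log2FC was 1.12 in CT (SE 0.07, n = 2 and 2 libraries, limma adjusted p = 0.00696) and 1.18 over the mouse groups (SE 0.10, n = 4 and 4 libraries, limma adjusted p = 4.98e-05). Platelets store TGF-beta 1, and their 11 markers summed to 254 to 920 in Ly6C high and 294 to 989 in Ly6C low libraries. The 2 T1DM libraries had the highest platelet sums, 920 and 989. Tgfb1 in the T1DM Ly6C high library was 8.31, beside 8.08 to 8.29 in the other Ly6C high libraries. In the T1DM Ly6C low library it was 6.81, beside 7.07 to 7.17 in the other Ly6C low libraries. The part of platelets in the Tgfb1 difference was not tested.

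Tgfbi stood at 9.84 and 9.77 in CT Ly6C high MCs against 6.74 and 6.95 in CT Ly6C low MCs. It was 9.77 against 6.43 in T1DM and 10.61 against 7.37 in T2DM. The gap between subsets was wider for Tgfbi than for any other of the 10 genes. The log2FC was 2.96 in CT (SE 0.09, limma adjusted p = 0.00348) and 3.12 over the mouse groups, 8.72-fold (SE 0.10, limma adjusted p = 4.68e-07). The classical markers and Tgfbi were both higher in every Ly6C high library, and the part of the sort in that difference was not tested.

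Of the receptor genes, Tgfbr2 was the one member that was lower in every Ly6C high library. It read 7.22 and 7.15 against 7.58 and 7.62 in CT, 6.94 against 7.65 in T1DM and 7.27 against 7.67 in T2DM. The difference was modest, with a log2FC of -0.41 in CT (SE 0.06, limma adjusted p = 0.026) and -0.48 over the mouse groups (SE 0.09, limma adjusted p = 0.00327), and did not reach the fold limit. The call over the mouse groups was lost without the CT libraries, where the log2FC was -0.55. The CT call was lost without any 1 library (adjusted p 0.0992 to 0.141) and without a variance trend (0.108), and the CT log2FC was -0.68 with quantile normalization and -0.70 with total scaling. Tgfbr1 was 7.27 and 7.03 in CT Ly6C high and 7.14 and 7.32 in CT Ly6C low MCs. It was 6.91 against 7.64 in T1DM and 6.66 against 7.01 in T2DM. CT libraries of the subsets overlapped for Tgfbr1, and the log2FC over the mouse groups was -0.31 (SE 0.13, limma adjusted p = 0.0984). With quantile normalization Tgfbr1 passed, at -0.54 (adjusted p = 0.0086), and with total scaling at -0.61 (adjusted p = 0.0056). Marker sums of B, NK and T cells were also higher in Ly6C low libraries, though not every NK and T cell marker was. The part of these cells in the Tgfbr2 difference was not tested.

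Among the signal transducers, Smad4 passed the test over the mouse groups. Smad4 was 6.43 and 6.77 against 5.94 and 6.05 in CT, 6.75 against 6.39 in T1DM and 6.74 against 5.94 in T2DM, Ly6C high against Ly6C low. Every Ly6C high library was above every Ly6C low one, the closest pair being 6.43 and 6.39. The log2FC was 0.59 over the mouse groups (SE 0.12, limma adjusted p = 0.00517) and 0.61 in CT alone (SE 0.15, limma adjusted p = 0.0728). The call over the mouse groups was lost with total scaling, at 0.29 (adjusted p = 0.0741), and without the CT libraries (adjusted p = 0.159). Smad2 was 6.67 and 6.92 against 6.53 and 6.45 in CT, 6.89 against 6.76 in T1DM and 6.73 against 6.40 in T2DM. Its subsets overlapped because the T1DM Ly6C low value exceeded the lowest Ly6C high value, and its log2FC of 0.27 did not pass (SE 0.10, limma adjusted p = 0.0697), turning to -0.03 with linear values scaled to a common total.

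Smad3 had the widest gap of the 10 genes between CT Ly6C high duplicates. Its CT Ly6C high libraries read 5.90 and 6.50 and its CT Ly6C low libraries 6.24 and 6.10. In T1DM it was 5.42 against 6.33 and in T2DM 5.83 against 6.74, so that Ly6C high was the lower subset in both diabetic groups. The subset difference was -0.90 in T1DM and -0.91 in T2DM, beside 0.03 in CT (SE 0.24), whose sign changed under other scalings. Over the mouse groups the log2FC was -0.44 (SE 0.21, limma adjusted p = 0.147), which did not pass the test. It passed with total scaling, at -0.74 (adjusted p = 0.0231), and without the second CT Ly6C high library, at -0.65 (adjusted p = 0.0198).

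The inhibitor genes Smad7, Ski and Skil did not pass the test on the deposited scale. Smad7 was 3.39 and 3.75 against 4.07 and 4.34 in CT, 3.29 against 3.57 in T1DM and 3.94 against 3.96 in T2DM. Ly6C high values for Smad7 were the lower ones within each mouse group, with a log2FC of -0.63 in CT and nearly equal values in T2DM, and the log2FC over the groups was -0.39 (SE 0.20, limma adjusted p = 0.165), while total scaling gave -0.69 (adjusted p = 0.0211). Ski was 6.45 and 6.43 against 6.34 and 6.22 in CT, 6.57 against 6.19 in T1DM and 6.66 against 6.14 in T2DM. The subsets did not overlap for Ski, and its log2FC of 0.30 just missed an adjusted p of 0.05 (SE 0.10, limma adjusted p = 0.0528), passing with the low-value filter (0.049), while it was 0.14 with quantile normalization (0.368) and 0.0 with total scaling (0.973). Skil was 7.17 and 7.11 against 6.69 and 6.89 in CT, 6.84 against 7.11 in T1DM and 6.78 against 6.69 in T2DM. Its log2FC over the groups was 0.13 (SE 0.12, limma adjusted p = 0.469), with a negative sign under quantile normalization and total scaling.

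**Figure D2:**
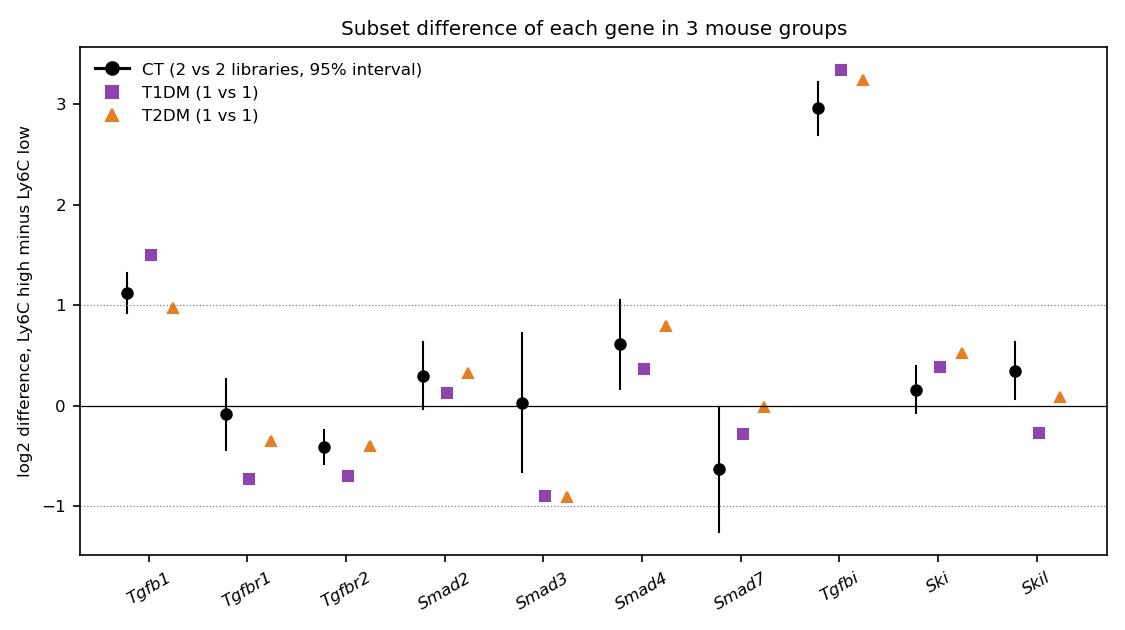
Log2 difference between Ly6C high and Ly6C low MCs (vertical axis) for each of the 10 genes (horizontal axis), as the limma estimate with its 95% interval in CT (black circles, 2 against 2 libraries) and as the difference of 1 library from 1 library in T1DM (squares) and T2DM (triangles). Dotted lines mark a 2-fold difference. Tgfbi lay between 2.96 and 3.34 in the 3 groups and Tgfb1 between 0.97 and 1.5.

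In the CT comparison both DEG calls were lost without any 1 of the 4 CT libraries, with adjusted p from 0.081 to 0.0849 for Tgfb1 and from 0.0633 to 0.0847 for Tgfbi, while over the mouse groups both calls held without each of these libraries. With quantile normalization or linear values scaled to a common total, Tgfb1 stayed higher in Ly6C high MCs but fell below the fold limit, at 0.85 and 0.83 in CT and 0.91 and 0.88 over the mouse groups, and without a variance trend neither gene was a DEG in CT.

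Comparison of mouse groups over both subsets asked how diabetes alters the MCs. Tgfbi was the sole member called at adjusted p below 0.05, and it was higher in T2DM. For T1DM against CT 0 of the 10 genes were DEG (limma, 0.0% of all entries), 0 passed an adjusted p below 0.05 (0.0182% of all entries) and 0 had an unadjusted p below 0.05 (3.34%). T2DM against CT gave 0 DEG of the 10 (0.297% of all entries) and 1 gene at adjusted p below 0.05 (0.801%), with 1 at an unadjusted p below 0.05 (8.94%). T2DM against T1DM, both read on the same sequencer, gave 0 DEG (0.588% of all entries) and 1 gene at adjusted p below 0.05 (2.0%), with 2 at an unadjusted p below 0.05 (14.3%).

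Tgfbi was 1.59-fold higher in T2DM than in CT, at a log2FC of 0.67 (SE 0.12, 2 against 4 libraries, limma adjusted p = 0.0459). It was 1.85-fold higher in T2DM than in T1DM, at a log2FC of 0.89 (SE 0.14, 2 against 2 libraries, limma adjusted p = 0.0153). The 2 libraries of T2DM, and those of T1DM, were the Ly6C high and Ly6C low sorts of pooled mice and not replicates. The SE of this fit thus also holds differences of the subset gap between mouse groups, and does not measure spread between animals. In Ly6C high MCs the T2DM value of 10.61 lay above 9.84 and 9.77 in CT and 9.77 in T1DM. In Ly6C low MCs 7.37 lay above 6.74 and 6.95 in CT and 6.43 in T1DM. The T2DM Ly6C high library also had the highest classical marker sum, 28200, beside 11300 to 13700 in the other Ly6C high libraries, and the T2DM Ly6C low library had 1500 beside 1140 to 1170. Median log2FC of the 8 classical markers was 0.76 against CT and 0.63 against T1DM, beside 0.01 and 0.0 for all entries. Of the 8 markers 3 were higher in T2DM against CT, and 3 against T1DM, at adjusted p below 0.05 (limma). The shares of all entries at this threshold were 0.801% and 2.0%. In the T2DM Ly6C high library Fn1 read 13.74, beside 12.24 to 12.99 in the other Ly6C high libraries, and Ly6c2 read 8.58, beside 8.56 to 8.72. Ccr2 read 11.37 there, beside 10.76 to 10.83. In the T2DM Ly6C low library Ccr2 read 8.57, beside 7.67 to 7.77 in the other Ly6C low libraries. Other markers also differed: at adjusted p below 0.05 (limma) NK cell markers were lower in T2DM for 5 of 8 against CT and 8 of 8 against T1DM, and against T1DM 6 of 11 platelet and 3 of 5 measured erythroid markers were lower. The part of these differences in the Tgfbi result was not tested. Against CT, the adjusted p for Tgfbi ranged from 0.0283 to 0.336 over 10 alternatives and was 0.156 and 0.155 without the first and the second CT Ly6C high library, 0.15 without the first CT Ly6C low library and 0.0456 without the second. Against T1DM it was below 0.05 in 9 of 10 alternatives.

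T2DM lay outside the CT and T1DM libraries on the same side in both subsets for 3 of the 10 genes, beside 19.8% of all entries. Tgfbi and Tgfbr2 were above and Tgfbr1 was below. For Tgfbr1 the log2FC was -0.35 against CT (SE 0.16, limma adjusted p = 0.571) and -0.44 against T1DM (SE 0.18, limma adjusted p = 0.326), and neither passed. For Smad7 the T1DM values were the lowest of their subset, with a log2FC of -0.46 against CT (SE 0.24, limma adjusted p = 1.0). The 95% interval of the T1DM minus CT difference reached from -0.40 to 0.16 for Tgfb1, from -0.90 to 0.28 for Smad3 and from -1.0 to 0.09 for Smad7, so that changes of this size cannot be told from none here. Over all entries the mean of both diabetic groups minus CT had an SD of 0.27, and the distance of either diabetic group from that mean had an SD of 0.37. Whether values were adjusted between sequencers before deposit is not stated in the sources used here. The T1DM and T2DM contrasts share the CT libraries, and no relation between them was drawn.

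**Figure D3:**
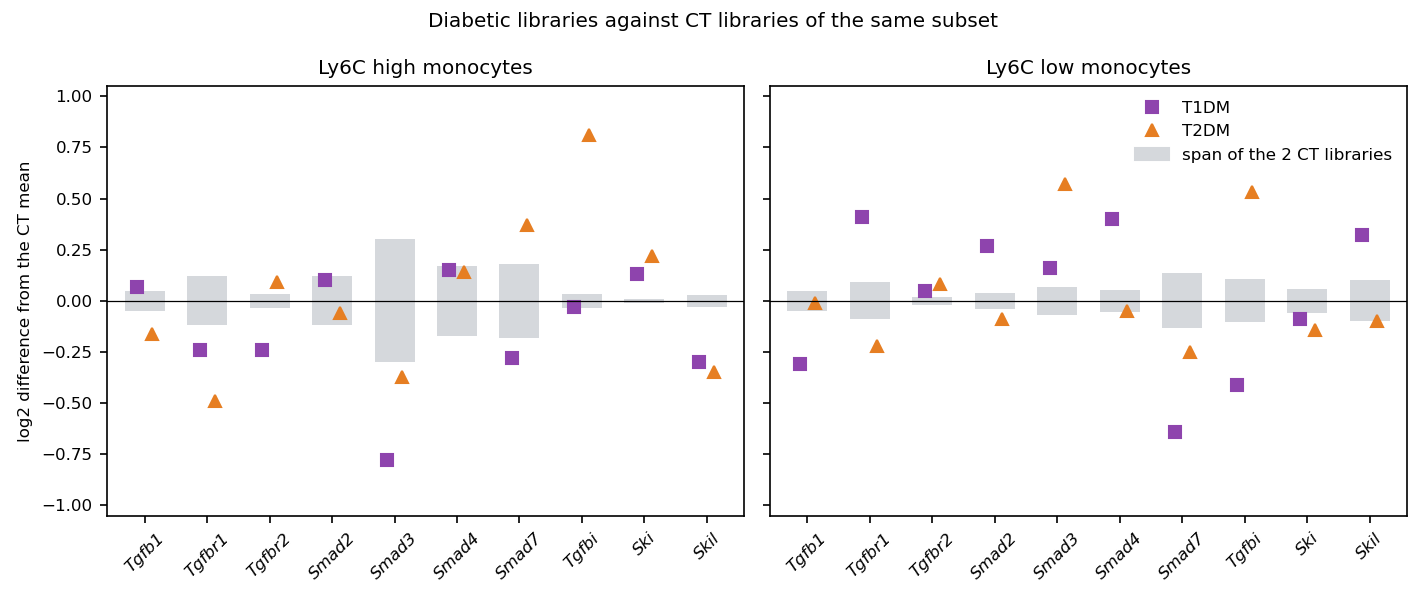
Log2 difference of the T1DM (squares) and T2DM (triangles) library from the mean of the 2 CT libraries of the same subset (vertical axis) for each gene (horizontal axis), in Ly6C high MCs (left) and Ly6C low MCs (right). The grey box spans the 2 CT libraries. Tgfbi in T2DM stood 0.81 above the CT mean in Ly6C high and 0.53 above it in Ly6C low MCs.

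Within each subset, single diabetic libraries were set beside the CT duplicates with no test. In T1DM Ly6C high MCs 0 of the 10 genes were more than 2-fold from the CT mean, beside 10.1% of all entries, and 3 lay further from the nearest CT library than the CT duplicates lay from each other, beside 39.7%. In T1DM Ly6C low MCs these counts were 0, beside 8.81% of all entries, and 7, beside 39.1%. In T2DM Ly6C high MCs they were 0, beside 13.8%, and 5, beside 45.3%, and in T2DM Ly6C low MCs 0, beside 10.8%, and 3, beside 41.5%. The widest differences were in Smad3, at -0.78 in T1DM Ly6C high MCs, Tgfbi, at 0.81 in T2DM Ly6C high MCs, and Smad7, at -0.64 in T1DM Ly6C low MCs. That Smad3 value lay 0.48 from the nearest CT library, less than its CT duplicate gap of 0.60, while the Tgfbi value lay 0.77 from the nearest against a gap of 0.07. Tgfbr1 differed in sign between libraries, at 0.41 in T1DM Ly6C low and -0.49 in T2DM Ly6C high MCs.

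The gap between Ly6C high and Ly6C low exceeded 2-fold for 2 of the 10 genes in T1DM, beside 27.9% of all entries, and for 1 in T2DM, beside 29.1%. Tgfb1 had 1.5 and Tgfbi 3.34 in T1DM, and Tgfbi had 3.24 in T2DM with Tgfb1 at 0.97, which was 0.69 with quantile normalization and 0.61 with total scaling. Tests of whether the subset gap itself differed between mouse groups gave 0 DEG and 0 genes at adjusted p below 0.05 in all 3 pairs (limma). For T1DM against CT the background was 0.0% for either call, and 3 genes had an unadjusted p below 0.05, beside 11.0% of all entries. For T2DM against CT it was 0.0% and 0.00607%, with 0 genes at an unadjusted p below 0.05 (13.9% of all entries), and for T2DM against T1DM 0.0% and 0.00607%, with 1 gene (11.4%). The genes with an unadjusted p below 0.05 were Skil, with a difference of gaps of -0.62 (limma adjusted p = 0.418), Tgfb1, with 0.38 (limma adjusted p = 0.445), and Tgfbr1, with -0.65 (limma adjusted p = 0.448), between T1DM and CT, and Tgfb1, with -0.53 (limma adjusted p = 0.376), between T2DM and T1DM. Single diabetic libraries were assumed in this fit to vary like the CT libraries.

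Of 61 further TGF-beta pathway genes in 5 groups, 57 were measured. Over the mouse groups 8 were DEG and higher and 5 were DEG and lower in Ly6C high MCs, and 19 and 9 passed an adjusted p below 0.05, beside the 12.1% and 32.9% of all entries given above. In CT alone these counts were 2, 1, 18 and 4, beside 3.52% (DEG) and 20.5% (adjusted p below 0.05) of all entries. With linear values scaled to a common total the DEG over the mouse groups were 5 higher and 7 lower, so the balance of directions depended on scaling. Ligand processing genes differed in both directions. Furin, a protease that cleaves the TGF-beta precursor, was higher (log2FC 1.33, SE 0.13, limma adjusted p = 9.8e-05), and Ltbp4, a protein that anchors the latent ligand to matrix, was lower (-3.82, SE 0.49, limma adjusted p = 0.00047). The Ltbp4 values were low, at -2.53 to -1.99 in Ly6C high and 0.16 to 2.48 in Ly6C low libraries. Nrros, which holds latent TGF-beta 1 on myeloid cells, was 0.86 higher (SE 0.08, limma adjusted p = 9.51e-05), below the fold limit.

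Of 9 receptors of the wider family 0 were DEG in CT alone, beside 3.52% of all entries. At adjusted p below 0.05 (limma) 6 were higher and 1 was lower in CT, beside 20.5%. With the low-value filter, which gave 1089 DEG among all entries in CT, 2 receptors were higher and 1 was lower as DEG. Over the mouse groups 4 were higher and 1 was lower as DEG, beside 12.1% of all entries. With total scaling the counts were 3 and 1, without the T1DM libraries 3 and 0, and without the T2DM libraries 2 and 1. Those higher were the activin and BMP type I receptor genes Acvr1 (1.80, SE 0.26, limma adjusted p = 0.000922), Acvr1b (1.02, SE 0.11, limma adjusted p = 0.000144) and Acvrl1 (1.77, SE 0.27, limma adjusted p = 0.00129) and the co-receptor gene Eng (1.86, SE 0.34, limma adjusted p = 0.00322), whose values were low, at 2.07 to 3.32 in Ly6C high and -0.05 to 1.95 in Ly6C low libraries. Tgfbr3, the gene of the co-receptor betaglycan, was lower (-2.69, SE 0.48, limma adjusted p = 0.00285), at 2.02 to 4.64 in Ly6C high and 5.78 to 6.84 in Ly6C low libraries. Of 9 measured SMADs and partners 0 were DEG, with 1 higher and 1 lower at adjusted p below 0.05. Of 14 measured inhibitors Pmepa1, a TGF-beta induced inhibitor of SMAD signalling, was the sole DEG and was lower (-4.57, SE 0.56, limma adjusted p = 0.000343). It was not called in CT, and its values were low in Ly6C high MCs, at -1.74 and 0.44 in the CT duplicates, -1.85 in T1DM and -1.51 in T2DM, against 2.98 to 3.79 in Ly6C low MCs.

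Genes known as targets of the pathway did not move one way. Of 13 measured, 3 were DEG and higher and 2 DEG and lower over the mouse groups, beside 12.1% of all entries. These counts were 2 and 2 with quantile normalization and 1 and 4 with total scaling, so the balance depended on scaling. Fn1, which encodes fibronectin and is also one of the classical MC markers, was 3.90 higher (SE 0.21, limma adjusted p = 4.35e-06), Klf10, an early TGF-beta response gene, was 1.07 higher (SE 0.10, limma adjusted p = 5.96e-05) and Ahnak was 1.00 higher (SE 0.06, limma adjusted p = 1.08e-05). Klf10 and Ahnak lay close to the fold limit. Tgm2, which encodes a transglutaminase, was lower (-2.52, SE 0.24, limma adjusted p = 9.03e-05), as was Bhlhe40 (-1.55, SE 0.22, limma adjusted p = 0.000705). In CT alone Ahnak (1.02), Fn1 (3.36) and Ltbp4 (-4.07) were the DEG. In the mouse group comparisons and the tests of the subset gap 0 of the 57 genes passed an adjusted p below 0.05 (limma). Under alternatives at most 3 did, for the T2DM minus CT subset gap with the low-value filter, 1 of them a DEG. Leaving out any 1 CT library left 0 DEG among the 57 in CT, and 11 to 13 over the mouse groups.

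**Figure D4:**
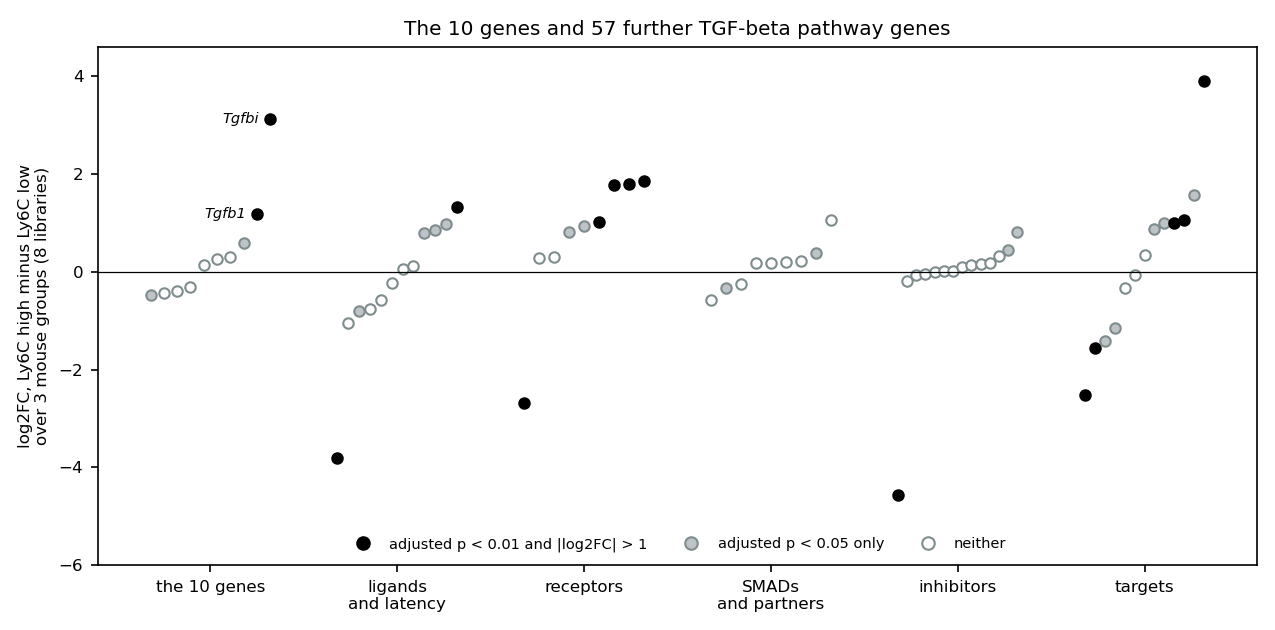
Log2FC between Ly6C high and Ly6C low MCs over the 3 mouse groups, 8 libraries (vertical axis), for the 10 genes and 57 further TGF-beta pathway genes in 5 groups (horizontal axis, each point 1 gene). Black points are DEG, grey points passed an adjusted p below 0.05 alone and open points did not pass. Higher and lower DEG stood side by side among the ligand, receptor and target genes.

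Profiles over the 8 libraries were compared for the 3 members with the widest range. Likeness was the root mean square difference of log2 values after centring each gene on its mean, searched over the 5228 genes whose log2 values averaged 5 or more. Nearest to Tgfbi were Ccr2 at 0.18, Msr1 at 0.19 and C3 at 0.20. Ccr2, the chemokine receptor that marks classical MCs, read 10.76 to 11.37 in Ly6C high and 7.67 to 8.57 in Ly6C low libraries and, like Tgfbi, was highest in T2DM in both subsets. Nearest to Tgfb1 were Sh3bp1 at 0.07 and BC005537 at 0.08, and nearest to Smad3 were Dnmt3a at 0.11, Ric1 at 0.15 and Chd3 at 0.16. Likeness over 8 libraries that fall into 2 sorted subsets and 2 sequencers only describes how values varied across these libraries.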

How the data were processed

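RNA of sorted blood monocyte subsets was pooled from 5 mice per group and sequenced. The submitters' processing notes and the labels name mm10, Kallisto 0.45 for pseudoalignment and tximport (version 1.12.3, under R 3.6.1) for gene-level summaries. The values used here are the normalized log2 values deposited by the authors, with no counts, so counting depth behind each value is unknown and no interval for counting error is given. The methods name gene counts and TPM as tximport output, but which of these the table was made from, and how it was normalized, is not given in the sources used here. By a check of the reference transcripts, 31-base stretches shared with other genes made up at most 2.34% of any member's transcripts.

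The values were fitted with limma 3.58.1 in R 4.3.3 (lmFit, eBayes with a variance trend, Benjamini-Hochberg over all 16486 entries) in 8 comparisons: CT libraries alone (2 residual degrees of freedom), a fit with mouse group and subset over 8 libraries (4), and a fit with 6 group means (2). In the fit with mouse group and subset, the spread came from the CT duplicates and from subset gaps that differed between mouse groups. DEG passed an adjusted p below 0.01 and an absolute log2FC above 1, as in the study's methods. Alternatives were other scalings, a low-value filter, 1 added on the linear scale, no variance trend, a replicate block and libraries left out. The sets named in the text were all 10 members, each further pathway gene that was a DEG in any comparison, and the 3 nearest profiles of the 3 members with the widest range, of which 1 is not reported here. Further pathway genes named at a lesser threshold (Nrros), the single markers Cx3cr1, Nr4a1 and Ly6c2, and Ccr2 as a marker were chosen after their values were seen. Members and lists were chosen with earlier results of these data known. Sequences came from RefSeq. Deposited columns of other samples numbered 0. Duplicate diabetic libraries were not analysed here.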

Additional observations from a re-analysis of the deposited data

How the results depend on the processing

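The 8 comparisons were recomputed under up to 13 alternatives. Median log2FC of all entries moved with scaling, from -0.09 to 0.02 (quantile normalization) and -0.37 (linear values scaled to a total of 1000000, chosen after seeing the data) in CT, and from -0.08 to 0.04 and -0.38 over the mouse groups. The share of DEG that were higher in Ly6C high MCs was 59.6%, 50.4% and 36.5% in CT and 44.3%, 49.0% and 22.1% over the mouse groups in that order. Of all entries, 581 were DEG in CT, 1089 with the low-value filter, and 0 without the variance trend, with the block or without any 1 library. Over the mouse groups 2001 were DEG, and 0 without the CT libraries. For T2DM against CT 49 became 9 without the trend, 13 with the block and 17 to 21 without any 1 library, and for T2DM against T1DM 97 became 26, 62 and, at the lowest, 57. The subset gap of T2DM against CT gave 0 DEG, and 4 with the filter, 3 with quantile normalization and 1 with total scaling, and that of T2DM against T1DM 0, 3 and 2. Among the 57 further pathway genes, the 3 DEG in CT became 8 with the filter and 0 without the trend or with the block, and the 13 over the mouse groups became 0 without the CT libraries.

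Of the 10 genes, 2 were called in CT, 1 with quantile normalization, 1 with total scaling, 0 with eBayes without trend, and 0 to 0 without any 1 library. Over the mouse groups 2 were called, 1 with quantile normalization, 1 with total scaling, 0 without the CT libraries (also chosen after seeing the data, leaving 4 libraries and fewer degrees of freedom) and 4 at adjusted p below 0.05 with no fold minimum. The gene lost under both scalings was Tgfb1, whose log2FC fell to 0.85 and 0.83 in CT and 0.91 and 0.88 over the groups. T2DM against CT and T2DM against T1DM each gave 1 gene at adjusted p below 0.05 with no fold minimum.

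Fitted with the replicate block, 0 genes were called in CT and 2 over the mouse groups, with adjusted p of 0.0304 for Tgfb1 and 0.0278 for Tgfbi in CT. The replicate numbers were not shown to pair the samples: the CT replicate differences of the subsets correlated at 0.00892 over genes. In T1DM against CT Ski was -0.02 with the block.

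Signs changed for small, uncalled values, and the cause was not tested. In CT, Smad3 was -0.14 (quantile) and -0.25 (total scaling), with -0.27 to 0.33 without any 1 library, Ski -0.01 and -0.12, and Tgfbr1 -0.20 to 0.03 without any 1 library. Over the mouse groups Skil was -0.08 (quantile), -0.17 (total scaling) and -0.09 (without the CT libraries), and Smad2 -0.03 (total scaling). For T1DM against CT, Ski was -0.01 and -0.04 under these scalings, with -0.01 to 0.07 without any 1 library, and Skil -0.02 and -0.05, with -0.07 to 0.06. For T2DM against CT, total scaling gave -0.01 for Smad4 and -0.02 for Ski, and leaving out 1 library gave -0.02 to 0.31 for Smad3, -0.02 to 0.12 for Smad4 and -0.06 to 0.16 for Smad7. For the T2DM minus CT difference of the subset gap, total scaling gave -0.07 for Tgfbr2 and -0.05 for Smad2, and leaving out 1 library gave -0.03 to 0.05 and -0.10 to 0.15.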
